A study of Mus musculus with 6 samples.

Results

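The calpain system of skeletal muscle is described here through 9 genes: the calpain subunit genes Capn1, Capn2, Capn3, Capn5, Capn6, Capn7 and Capn10, the small subunit gene Capns1, and Cast, which encodes the inhibitor calpastatin. They were taken by symbol, and all 9 were found once each among the 57010 gene IDs of the deposited count matrix. The series holds RNA-seq libraries from the gastrocnemius, a fast muscle of the calf, of 3 mutant and 3 control mice aged 3 months, untreated, each library coming from 1 animal. The mutants were homozygous for Dysfprmd on the line B6.A-Dysfprmd/GeneJ (BLAJ), in which the allele comes from strain A/J and dysferlin is lost in every cell type rather than in muscle alone. The controls were labelled wild type and C57BL/6. Mutant replicates 1 and 2 were female, while mutant replicate 3 and all 3 controls were male, and a difference between groups is therefore partly one between sexes.

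Calpains are cytosolic cysteine proteases switched on by calcium, which enters the fibre in a burst when its membrane tears. The ubiquitous enzymes encoded by Capn1 and Capn2 each pair with the small subunit of Capns1 and are held in check by calpastatin. They cut cytoskeletal proteins, and in human muscle they cut dysferlin itself at sites of injury, releasing a fragment that takes part in resealing. Capn3 is the form made mainly in skeletal muscle. It binds titin, works without Capns1, and its loss in humans causes a recessive limb-girdle muscular dystrophy, as the loss of dysferlin does.

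None of the 9 genes differed between mutants and controls by the edgeR quasi-likelihood test at an adjusted p below 0.05, a rule that called 0.199% of the 15589 genes tested. All 9 passed the filter on low counts. At an unadjusted p below 0.05 there was 1 gene, Capn10, where 6.94% of all tested genes passed, and DESeq2 and limma-voom also called 0 of the 9. The groups did not overlap in 1 of the 9, again Capn10, where 12.1% of all tested genes showed this in either direction. The fitted log2 fold change (mutant minus control) was above 0 in 3 genes and below 0 in 6, with a median of -0.10, beside -0.0015 over all tested genes. In whole muscle, fewer cells of a type and less RNA per cell cannot be told apart.

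Facts of the libraries bear on every value below. Totals ran from 35042245 to 43733641 read pairs. On these raw totals 3 counts in 1 library correspond to 0.0686 to 0.0856 CPM, the count scaled to library size. The CPM of genes use TMM-scaled library sizes instead. Each library had 110778 to 150254 CPM in 7 fibre markers such as Acta1 and Myh4, which fits the labelled tissue. Dysf fell to 15.8, 14.7 and 20.3 CPM in mutant replicates 1, 2 and 3, against 72.3, 99.8 and 145 CPM in control replicates 1, 2 and 3 (log2 fold change -2.64, SE 0.28, edgeR adjusted p = 0.0249). Dysf passed at an unadjusted p below 0.05 in all 16 alternatives, but its call was lost in 5: its edgeR adjusted p was 0.546 with sex as a covariate, 0.998 in males only, and 0.228, 0.178 and 0.0637 without mutant replicates 1, 2 and 3. C57BL/6 mice are known not to express Ifi202b and H2-Ea-ps. Ifi202b had 0 counts over the 3 mutants but lay between 1.02 and 7.69 CPM in controls, and H2-Ea-ps had 1 count over the mutants but 2.37 to 3.44 CPM in controls. The controls thus went against their strain label, and strain and loss of dysferlin cannot be told apart in any comparison.

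Capn3 is shown first with the windows around its 2 RefSeq transcription starts, 250 bases before to 50 after each, because it is the muscle form and the starts have different surroundings. Capn10 is shown beside it as the member whose groups did not overlap. Sequences are from RefSeq on GRCm38.p6, on the plus strand, 5′ to 3′, with capitals at each E-box CANNTG, a motif bound by myogenic factors that reads the same on both strands.
Capn3 upstream start, chr2:120463343-120463642: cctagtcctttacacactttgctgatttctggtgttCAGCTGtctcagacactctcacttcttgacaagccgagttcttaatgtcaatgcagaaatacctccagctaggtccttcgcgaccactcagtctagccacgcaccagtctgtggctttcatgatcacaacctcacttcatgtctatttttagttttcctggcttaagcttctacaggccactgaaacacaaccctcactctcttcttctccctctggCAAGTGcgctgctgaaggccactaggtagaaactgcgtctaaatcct
Capn3 downstream start, chr2:120476659-120476958: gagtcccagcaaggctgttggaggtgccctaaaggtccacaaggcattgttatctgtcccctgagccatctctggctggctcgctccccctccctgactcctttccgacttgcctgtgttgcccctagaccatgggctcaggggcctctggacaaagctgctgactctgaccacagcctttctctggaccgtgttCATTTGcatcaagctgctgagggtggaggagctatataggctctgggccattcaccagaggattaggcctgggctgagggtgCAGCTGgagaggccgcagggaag
Capn10 start, chr1:92934158-92934457: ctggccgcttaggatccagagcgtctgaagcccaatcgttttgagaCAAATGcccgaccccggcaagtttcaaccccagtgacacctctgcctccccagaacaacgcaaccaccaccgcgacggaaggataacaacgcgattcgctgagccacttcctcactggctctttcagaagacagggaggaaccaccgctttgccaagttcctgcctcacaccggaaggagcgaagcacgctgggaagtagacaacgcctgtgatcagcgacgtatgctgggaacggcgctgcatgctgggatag

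Each Capn3 window held 2 E-boxes and the Capn10 window 1, and 72.3% of all 32851 RefSeq promoter windows of this length held at least 1. The Capn3 windows had 6 CpG dinucleotides upstream and 4 downstream, against 21 in the Capn10 window and a median of 7 over all windows. The gene-level counts do not separate the starts. Windows were found for 8 of the 9 genes, all except Capn5.

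Capn3 (ENSMUSG00000079110) had 15.2, 16.2 and 22.6 CPM in mutant replicates 1, 2 and 3, against 28.9, 14.7 and 25.6 CPM in control replicates 1, 2 and 3. The groups overlapped, since control replicate 2 was the lowest of all 6 libraries and all 3 mutants lay inside the range of the controls. The mean was 18.0 ± 4.04 CPM in mutants and 23.1 ± 7.42 CPM in controls (SD, n = 3 each). The log2 fold change was -0.36 (SE 0.28, 95% interval -1.01 to 0.30, edgeR adjusted p = 0.864), an interval that includes 0. Without control replicate 2 the estimate was -0.60 (edgeR adjusted p = 0.532). With sex as a covariate it was -0.03 (edgeR adjusted p = 0.993). Since all controls were male, that estimate, for Capn3 as for every gene, rests on mutant replicate 3 against the 3 controls, and it is no measure of an effect of sex.

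Control replicate 2 also stood apart in the summed markers of regenerating fibres. The 6 genes of that list summed to 39.9 to 69.1 CPM in the mutants, against 47.1, 826 and 27.2 CPM in control replicates 1, 2 and 3. Sarcolipin, Sln, made up 678 CPM of the sum in control replicate 2, and no gene of the list was at 0 in any library. Chrng, Myog, Ncam1 and Myh3 reached at most 0.749, 14.0, 8.91 and 24.8 CPM in the other libraries. In control replicate 2 they were higher, at 20.1, 53.4, 25.6 and 40.4 CPM. The myosin gene Myh8 of the list was not raised there. It had 8.47 CPM in control replicate 2, against 10.2 to 19.7 CPM in mutants and 12.2 and 5.29 CPM in control replicates 1 and 3. Whether the high sum has a part in the low Capn3 count of control replicate 2 was not tested.

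Capn3 shares 7.68% of its exon bases with the gene Ganc, a glucosidase gene on the same strand, in the GENCODE M21 annotation. Read pairs in shared exons are given to neither gene, also in strand-matched counts, so the Capn3 level may be understated. The sources used here do not give the annotation release behind the counts. Ganc, chosen after its values were seen, had 42.1, 47.4 and 53.4 CPM in mutant replicates 1, 2 and 3, against 67.0, 57.1 and 59.0 CPM in control replicates 1, 2 and 3. Its groups did not overlap, but it was not called (log2 fold change -0.36, SE 0.14, edgeR adjusted p = 0.677).

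**Figure D1:**
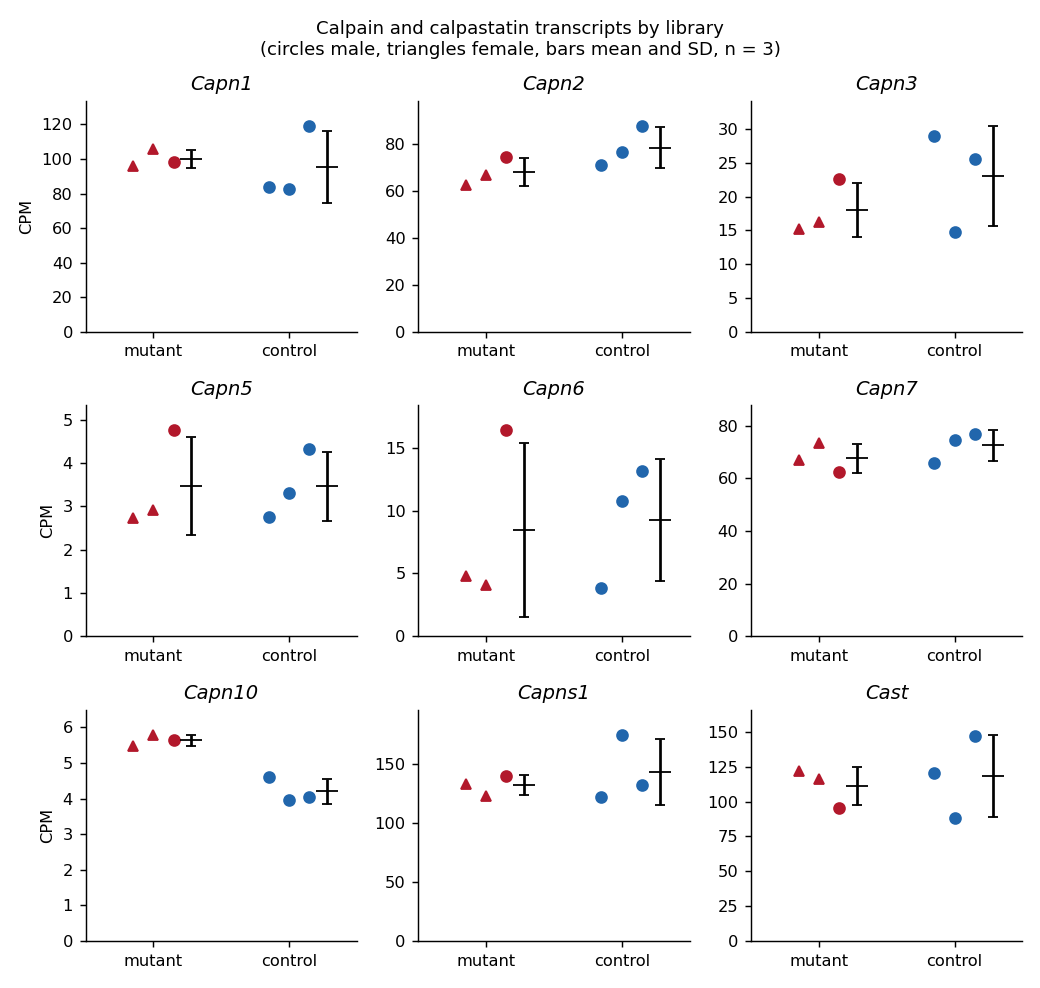
CPM of each gene in each library, mutants at the left and controls at the right of each panel, with circles for males, triangles for females and bars for the mean and SD of 3 animals. Capn10 alone separates the groups, at 5.47 to 5.79 CPM in mutants against 3.96 to 4.60 CPM in controls.

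Capn1 encodes the large subunit of the calpain that responds to micromolar calcium. Capn1 (ENSMUSG00000024942) had 95.8, 106 and 98.1 CPM in mutant replicates 1, 2 and 3, against 83.8, 82.6 and 119 CPM in control replicates 1, 2 and 3. The mutants lay close together, inside the wider range of the controls, and the log2 fold change was 0.07 (SE 0.17, 95% interval -0.34 to 0.47, edgeR adjusted p = 0.967).

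Capn2 encodes the large subunit of the calpain that needs millimolar calcium in the test tube. Capn2 (ENSMUSG00000026509) had 62.8, 66.8 and 74.8 CPM in mutant replicates 1, 2 and 3, against 71.1, 76.7 and 88.0 CPM in control replicates 1, 2 and 3. The female mutants were below every control, and the male mutant lay between control replicates 1 and 2. The log2 fold change was -0.21 (SE 0.14, 95% interval -0.53 to 0.11, edgeR adjusted p = 0.834).

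Capns1 encodes the regulatory small subunit that pairs with both of these large ones. Capns1 (ENSMUSG00000001794) had 133, 123 and 140 CPM in mutant replicates 1, 2 and 3, against 122, 175 and 132 CPM in control replicates 1, 2 and 3. Control replicate 2, the library with the high sum of regeneration markers, was the highest, and the other 5 libraries lay within 122 to 140 CPM. Its log2 fold change was -0.11 (SE 0.17, 95% interval -0.51 to 0.28, edgeR adjusted p = 0.942).

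Cast encodes the inhibitor of the Capn1 and Capn2 enzymes. Cast (ENSMUSG00000021585) had 122, 116 and 95.7 CPM in mutant replicates 1, 2 and 3, against 121, 87.9 and 147 CPM in control replicates 1, 2 and 3. All mutants lay inside the range of the controls, and the fitted log2 fold change was -0.09 (SE 0.21, 95% interval -0.58 to 0.39, edgeR adjusted p = 0.962).

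The balance of inhibitor and enzyme transcripts was described per length. The ratio of Cast to the sum of Capn1 and Capn2, each in CPM per kilobase of merged exons, was 0.276, 0.239 and 0.203 in mutant replicates 1, 2 and 3, against 0.290, 0.208 and 0.258 in control replicates 1, 2 and 3. The ratio of Capn1 to Capn2 on the same scale was 2.89, 3.01 and 2.49 in mutant replicates 1, 2 and 3, against 2.24, 2.04 and 2.57 in control replicates 1, 2 and 3. Both ratios overlapped between the groups. With lengths of the longest transcript the inhibitor ratio was 0.337 to 0.467 in mutants and 0.337 to 0.475 in controls. On those lengths the ratio of Capn1 to Capn2 was lower, at 1.38 to 1.67 in mutants and 1.14 to 1.43 in controls, and the groups again overlapped. These are ratios of transcripts, and protein or protease activity was not analysed here.

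**Figure D2:**
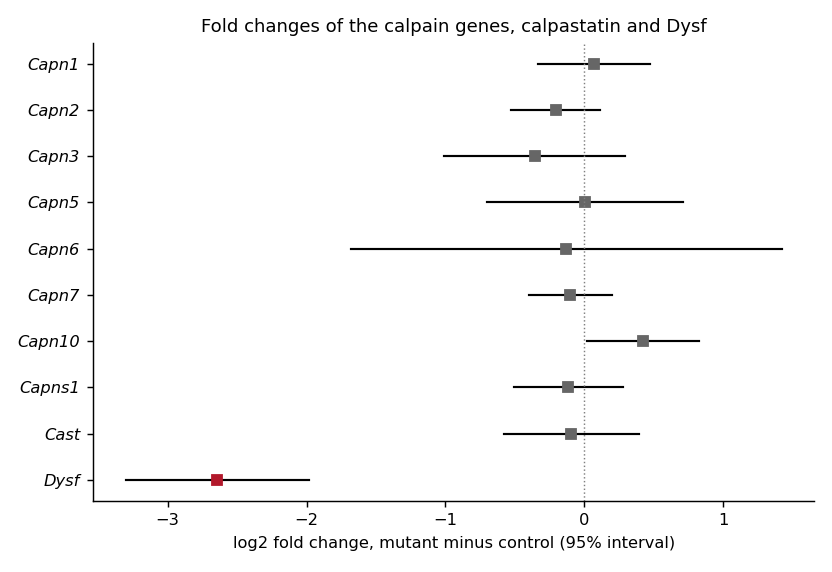
Log2 fold change of mutants over controls for each gene (square) with its 95% interval (line), and Dysf for scale. Capn10 has an interval just above 0 but an adjusted p of 0.695, and Dysf at -2.64 is the gene drawn in red as called.

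Of the less studied members, Capn10 encodes a calpain without the calcium-binding hand domain of the classical enzymes, linked in humans to type II diabetes risk. Capn10 (ENSMUSG00000026270) had 5.47, 5.79 and 5.65 CPM in mutant replicates 1, 2 and 3, against 4.60, 3.96 and 4.04 CPM in control replicates 1, 2 and 3. Every mutant, of either sex, lay above every control, a pattern in this direction that 5.97% of all tested genes showed. The mean was 5.64 ± 0.159 CPM in mutants and 4.20 ± 0.344 CPM in controls (SD, n = 3 each). On the log2 scale the difference was 0.42 (SE 0.17, 95% interval 0.02 to 0.83). It was not called (unadjusted p = 0.0412, edgeR adjusted p = 0.695), and 159 to 222 read pairs stood behind each value. An unadjusted p below 0.05 was kept in 6 of the 16 alternatives, and it was 0.0657 on strand-matched counts, 0.135 with sex as a covariate and 0.228 in males only. Summed markers were compared for several cell types, and the 2 sums named next were picked because they also separated the groups. The 5 endothelial markers summed to 256 to 361 CPM in mutants and 236 to 244 CPM in controls, and the 4 of smooth muscle and pericytes to 540 to 667 CPM in mutants and 428 to 530 CPM in controls, with none of the 9 at 0. Of the single genes, 1 of the 5 and 2 of the 4 separated the groups, where 12.1% of all tested genes did. In the neutrophil list, whose sums overlapped, 3 of 4 genes did so, in the lower direction. Rgs5 carried most of the second sum, at 362 to 478 CPM in mutants and 306 to 352 CPM in controls. Tie1, Acta2 and Myh11 were higher in control replicate 1 than in mutant replicate 1. The part of these cell types in the Capn10 values was not tested.

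Capn6 encodes a calpain whose active-site cysteine is replaced, so that it is thought not to cut proteins. In mice it restrains muscle development and regeneration. Capn6 (ENSMUSG00000067276) had 4.78, 4.11 and 16.4 CPM in mutant replicates 1, 2 and 3, against 3.82, 10.7 and 13.1 CPM in control replicates 1, 2 and 3. It split both groups, with the male mutant and control replicates 2 and 3 high and the female mutants and control replicate 1 low. The log2 fold change was -0.13 (SE 0.65, 95% interval -1.68 to 1.42, edgeR adjusted p = 0.986). Without mutant replicate 3 it was -1.05 (edgeR adjusted p = 0.728), so that the estimate depended on that library. With sex as a covariate, where mutant replicate 3 alone stands for the mutants, it was 0.83 (edgeR adjusted p = 0.899).

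Summed fibroblast markers were also highest in mutant replicate 3 and control replicate 3, but control replicate 2, high in Capn6, lay near mutant replicate 1 in the sum. The summed level of 5 of these markers was 888, 635 and 4184 CPM in mutant replicates 1, 2 and 3, against 661, 1029 and 3319 CPM in control replicates 1, 2 and 3. The collagen gene Col1a1 spanned 97.3 to 2131 CPM in mutants and 69.1 to 1424 CPM in controls. The defining fibroblast markers moved far less, with the receptor gene Pdgfra at 24.8 to 38.0 CPM in mutants and 32.0 to 37.4 CPM in controls, and none of the 5 was at 0. Lum had another order, with 50.2, 32.1 and 54.9 CPM in mutant replicates 1, 2 and 3, against 31.3, 55.1 and 39.1 CPM in control replicates 1, 2 and 3. Whether fibroblast genes have a part in the Capn6 values was not tested.

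Capn5 encodes a calpain that is mutated in a human inflammatory eye disease. Capn5 (ENSMUSG00000035547) had 2.72, 2.92 and 4.76 CPM in mutant replicates 1, 2 and 3, against 2.75, 3.31 and 4.32 CPM in control replicates 1, 2 and 3. The group ranges nearly coincided, and the log2 fold change was 0.0044 (SE 0.30, 95% interval -0.70 to 0.71, edgeR adjusted p = 0.999).

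Capn7 encodes a calpain that binds the ESCRT machinery, which closes membranes. Capn7 (ENSMUSG00000021893) had 67.0, 73.4 and 62.6 CPM in mutant replicates 1, 2 and 3, against 65.9, 74.7 and 77.0 CPM in control replicates 1, 2 and 3. It was the steadiest gene of the 9, with the highest and lowest libraries 0.30 apart on the log2 scale, against 0.64 for the median tested gene. The log2 fold change was -0.10 (SE 0.13, 95% interval -0.40 to 0.20, edgeR adjusted p = 0.929), so larger differences lie outside its interval.

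Spread within groups differed widely among the 9 genes. The within-group SD of log2(CPM + 0.5) ran from 0.04 for Capn10 to 1.03 for Capn6 in mutants, where the median tested gene had 0.19. In controls it ran from 0.10 for Capn10 to 0.89 for Capn6, where the median tested gene had 0.24. These SDs are of unstranded counts. Strand-matched, the Capn10 mutants lay further apart, at 5.79, 7.09 and 6.37 CPM in mutant replicates 1, 2 and 3. Capn3 came second in controls, with an SD of 0.51, and in mutants it had 0.30 and Capn5 0.39. The male mutant stood above both females in Capn2, Capn3, Capn5, Capn6 and Capns1 and below both in Capn7 and Cast. With 1 male mutant, sex within the mutants cannot be tested.

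**Figure D3:**
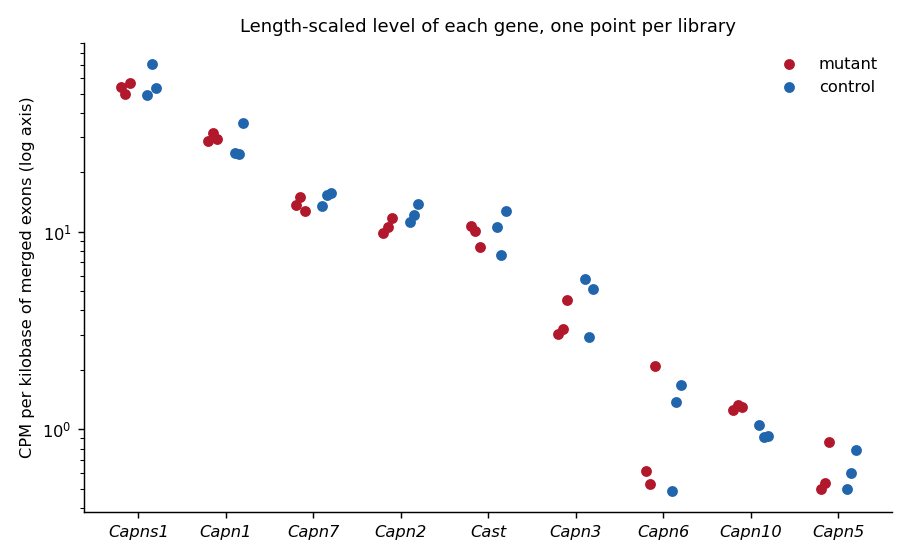
CPM per kilobase of merged exons on a log axis, 1 point per library, mutants left of controls, genes ordered by their mean over the 6 libraries. Capns1 and Capn1 stand apart at the top, and Capn3, whose level may be understated, lies below Capn7, Capn2 and Cast.

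Per length, Capns1 had the highest level, at 53.3 ± 3.41 CPM per kilobase in mutants and 57.7 ± 11.3 in controls (SD, n = 3 each). Capn1 followed at 29.9 ± 1.60 CPM per kilobase in mutants and 28.5 ± 6.23 in controls. Capn7, Capn2 and Cast formed the middle, with means over the 6 libraries of 14.3, 11.6 and 10.01 CPM per kilobase and ranges that overlapped from each to the next. Capn3 stood below them at 3.59 ± 0.803 CPM per kilobase in mutants and 4.60 ± 1.48 in controls, below Capn1 in every library. Capn6, Capn10 and Capn5 were lowest, at 1.13, 1.13 and 0.631 CPM per kilobase over the 6 libraries. The range of Capn6, 0.490 to 2.10, overlapped that of Capn10 and took in that of Capn5, 0.496 to 0.868. This order uses exon lengths of GENCODE M21. The place of Capn3 in it is uncertain, since read pairs in exons shared with Ganc are not counted and its level may be understated. With the longest transcript as the length, Capn2 and Cast came above Capn7, at 22.8 and 22.3 against 15.04 CPM per kilobase, and the other ranks stayed.

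Strand-matched counting shows which of these levels the deposited unstranded counts understate through genes on the other strand. It does not recover read pairs in exons shared on the same strand, as between Capn3 and Ganc. Where exons of a gene on the other strand overlap, unstranded counting leaves the read pairs unassigned. Capn2 gained most, its strand-matched count being 1.32 to 1.37 times the unstranded one, and in GENCODE M21 it shares 27.1% of its exon bases with the opposite-strand gene Gm37885. Capn10 gained 1.13 to 1.30 times, Capn1 1.15 to 1.18 times and Cast 1.08 to 1.15 times, while Capn3, Capn5 and Capn6 stayed within 0.991 to 1.01 times. On strand-matched counts, a comparison added after seeing the data, Capn2 came above Capn7, at 14.6 against 13.2 CPM per kilobase over the 6 libraries, and Capn10 above Capn6, at 1.31 against 1.06. At most 2.54% of the stranded reads of any of the 9 genes fell on the strand opposite to it.

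**Figure D4:**
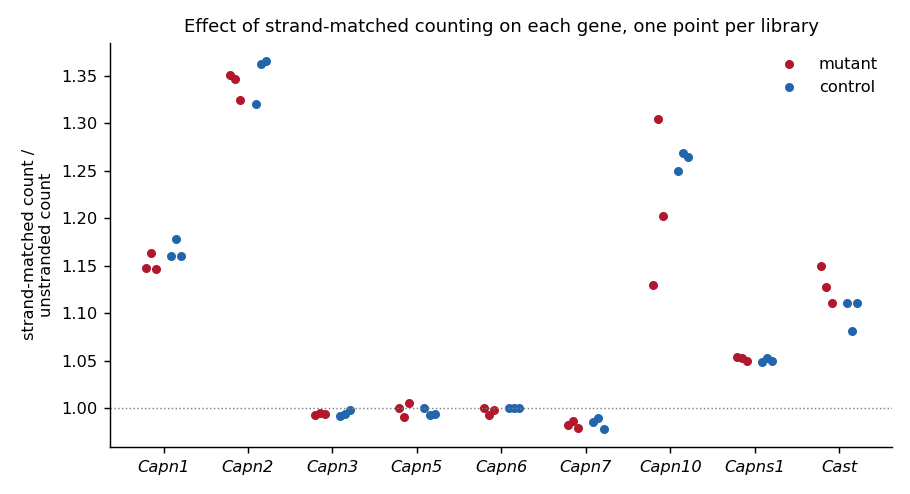
Ratio of the strand-matched to the unstranded count for each gene and library, mutants left of controls, with the dotted line at no difference. Capn2 is understated most by unstranded counting, and the Capn10 mutants differ among themselves.

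The gain for Capn10 was uneven, and its mutant libraries differed in it. Strand-matched, Capn10 had 5.79, 7.09 and 6.37 CPM in mutant replicates 1, 2 and 3, against 5.40, 4.72 and 4.79 CPM in control replicates 1, 2 and 3. The groups still did not overlap, and the log2 fold change was 0.37 (SE 0.17, edgeR adjusted p = 0.752).

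In the authors' deposited table Capn10 had a log2 fold change of 0.42 with an adjusted p of 0.634. The authors' deposited table gave the other 8 genes an adjusted p that rounds to 1, with Capn3 at -0.36.

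Of 7 other genes of the calpain family, 2 passed the filter on low counts and neither was called by edgeR, with 0 at an unadjusted p below 0.05. Capn15, a divergent member with zinc fingers, had 2.85, 4.24 and 4.02 CPM in mutant replicates 1, 2 and 3, against 3.67, 4.26 and 3.59 CPM in control replicates 1, 2 and 3. These levels are understated, since its strand-matched count was 1.65 to 1.93 times the unstranded one, more than for any of the 9 genes. Capn11, known from testis, was at most 0.82 CPM in mutants and at most 1.27 CPM in controls. Capn8 had 0 counts in all 6 libraries, and Capn9, Capn12, Capn13 and Capns2 had 6, 38, 2 and 1 counts over the 6 libraries. Capn12 had 2 to 13 strand-matched read pairs per library and 152 to 207 on the opposite strand, so unstranded counting says little about it.

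Genes of calpain substrates gave no calls either. Of 16 genes for cytoskeletal and sarcomeric substrates, 0 were called by edgeR and 0 passed at an unadjusted p below 0.05, with 11 estimates below 0 and a median log2 fold change of -0.12, beside -0.0015 for all tested genes. Ttn, the giant spring protein to which calpain of Capn3 binds, had 5707, 7356 and 7545 CPM in mutant replicates 1, 2 and 3, against 9621, 9109 and 7682 CPM in control replicates 1, 2 and 3. Its groups did not overlap (log2 fold change -0.36, SE 0.20, edgeR adjusted p = 0.804), a pattern in this direction that 6.09% of tested genes showed. Flnc, a filamin of the Z-disc, averaged 642 ± 112 CPM in mutants and 860 ± 117 CPM in controls (SD, n = 3 each; edgeR adjusted p = 0.749). Vcl, the vinculin gene, had 144.7 CPM in control replicate 3 and at most 61.0 CPM in every other library (edgeR adjusted p = 0.726).

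Among 11 genes of the dysferlin repair complex, edgeR called 1, Dysf itself, lower in the mutants, the call that was lost in 5 of the 16 alternatives. Bin1, which shapes the T-tubules, averaged 672 ± 37.6 CPM in mutants and 824 ± 174 CPM in controls (SD, n = 3 each; edgeR adjusted p = 0.834). Anxa6, an annexin of the repair cap, averaged 248 ± 17.1 CPM in mutants and 223 ± 37.1 CPM in controls (SD, n = 3 each; edgeR adjusted p = 0.912).

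Of 13 genes for other cysteine and lysosomal proteases and their inhibitors, edgeR called 0, with 0 at an unadjusted p below 0.05 and a median log2 fold change of 0.05. The groups did not overlap in 2 of the 13, where 12.1% of all tested genes showed this in either direction. One of these was Ctsb, the lysosomal cathepsin B gene. It averaged 371 ± 34.6 CPM in mutants and 323 ± 7.23 CPM in controls (SD, n = 3 each; edgeR adjusted p = 0.837). Ctss, a cathepsin of macrophages, stood highest in mutant replicate 1, at 27.8 CPM, with 12.9 CPM or less elsewhere (edgeR adjusted p = 0.777). The 6 macrophage markers summed to 163 CPM in that library, against 78.4 to 130.4 CPM in the other 5, but Lyz2 made up 103 CPM of it. Lyz2, Itgam and Adgre1 were highest in that library, whereas Mrc1, Cd68 and Csf1r were higher in control replicate 3 than there. The part of macrophages in the Ctss value was not tested.

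Of 9 ESCRT genes around Capn7, edgeR called 0, with 0 at an unadjusted p below 0.05 and a median log2 fold change of -0.06. Pdcd6ip, the ALIX adaptor gene, averaged 65.3 ± 2.65 CPM in mutants and 73.0 ± 5.82 CPM in controls (SD, n = 3 each; edgeR adjusted p = 0.847). Ist1, whose product binds the calpain of Capn7 in humans, averaged 27.8 ± 0.626 CPM in mutants and 31.0 ± 3.33 CPM in controls (SD, n = 3 each; edgeR adjusted p = 0.868). Vps4b, the ATPase gene that recycles the complex, averaged 24.7 ± 1.83 CPM in mutants and 27.0 ± 0.951 CPM in controls (SD, n = 3 each; edgeR adjusted p = 0.895).

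Genes nearest in pattern to 4 members were found among 7601 genes of at least 10 CPM, by the root mean square difference of centred log2(CPM + 0.5) over the 6 libraries. Nearest to Capn3 were Faap100, Man2a1 and Fibin, at 0.0602, 0.0724 and 0.115, where the median gene was at 0.418. Nearest to Capn1 were Sumf1, Mapk9 and Rnf170, at 0.0306, 0.0362 and 0.0467, against a median of 0.264. Nearest to Capn2 were Rhbdf1, Npdc1 and Gspt1, at 0.0435, 0.0443 and 0.0446, against a median of 0.243. Nearest to Cast were Dirc2, Sgpp1 and Fez2, at 0.0278, 0.0366 and 0.0641, against a median of 0.301. With 6 libraries and this many genes, small distances are found for any pattern, and no test was made.

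**Figure D5:**
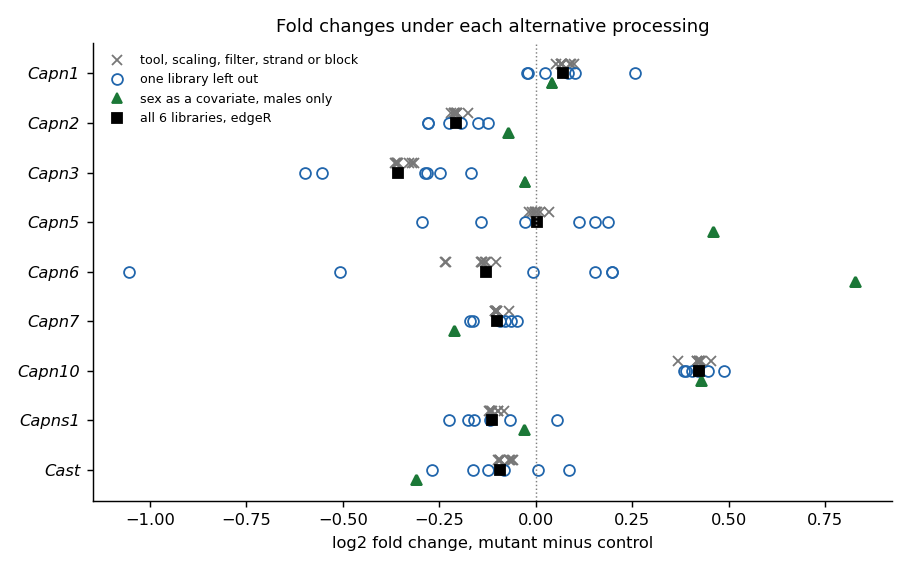
Log2 fold change of mutants over controls for each gene with all 6 libraries (black squares) and under the 16 alternatives, grouped by kind. Capn10 stays between 0.37 and 0.49 without being called, and Capn6 spans -1.05 to 0.83. The fits with sex as a covariate and in males only rest on 1 mutant animal, and there Capn3 lies at -0.03.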

How the data were processed

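Deposited were raw counts of read pairs, as a matrix by gene and as files of unstranded and per-strand counts, which the authors made for each library. The submitters' processing notes name STAR 2.7.11b, DESeq2 1.50.2 and GRCm39. Per the labels' protocols the poly(A) libraries were directional, yet the matrix equalled the unstranded counts in all 57010 genes. Entries naming no gene, 18.5% to 22.3% of pairs, were left out. The authors' deposited table holds log2 fold changes, p-values, Wald scores and mean normalized signal, per the file headers.

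Here edgeR 4.0.16 was fitted to the matrix counts of all 6 libraries (TMM, filterByExpr with minimum count 10, robust quasi-likelihood F-test, no covariate, Benjamini-Hochberg adjustment over 15589 genes). CPM uses TMM-scaled library sizes. SE and 95% intervals were derived from the F statistic. The procedure was tested on simulated data. Symbols matched 52029 IDs, and exon lengths come from GENCODE M21 (GRCm38). No 2 libraries agreed within sampling noise (lowest chi-square 54.6 per degree of freedom). Plots used matplotlib 3.10.9.

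The members and lists were chosen with earlier results of these data known. Named genes are the 9 members, Dysf, the called genes or else the 3 smallest p of each list, and the 3 nearest patterns to Capn3, Capn1, Capn2 and Cast, of which 1 gene is not reported here. Alternatives were DESeq2 1.42.0, limma-voom (limma 3.58.1), other scalings and filters, strand-matched counts, sex, males only, a replicate block and each library left out. Strand-matched levels per kilobase were added after seeing the data.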

Additional observations from a re-analysis of the deposited data

How the results depend on the processing

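No member was called under any of the 16 alternatives, DESeq2 and limma-voom included. Capn2, Capn3, Capn7 and Capn10 kept their direction in all 16. Near-zero estimates changed sign: Capn5 was -0.0031 with RLE size factors, -0.0101 in limma-voom, -0.0026 with no filter on low counts and -0.0165 with the replicate block. The fits with sex as a covariate and in males only, whose group difference rests on mutant replicate 3, both gave 0.83 for Capn6, 0.46 for Capn5, -0.07 for Capn2, -0.31 for Cast and -0.21 for Capn7. Leaving out 1 library gave Capn1 -0.0237 to 0.26, Capn5 -0.29 to 0.19, Capn6 -1.05 to 0.20, Capns1 -0.22 to 0.0543, Cast -0.27 to 0.0851 and Capn3 -0.60 to -0.17. Dysf stayed between -2.86 and -2.35.

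The number of genes called, 31, was 201 in DESeq2, 79 with no filter on low counts, 0 with sex as a covariate (882 at an unadjusted p below 0.05), 0 in males only (594) and 11 with the replicate block. It was 6 to 49 with 1 library left out, 49 being without control replicate 2, and 7 and 6 without mutant replicates 1 and 2. Apart from fewer libraries in some fits, the cause was not tested. In males only, the lone mutant is assumed to vary like the controls. The replicate numbers gave no pairing in the labels, and same-numbered libraries deviated together with correlations of 0.227, -0.0572 and 0.22. At least 103 read pairs stood behind the value of every member in every library.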
